A study of Mus musculus with 20 samples.

Results

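Among the genes measured by RNA-seq in the cochlea of *Bai1* mutant mice, 10 genes grouped under the name of brain neuron genes were followed library by library: *Trank1*, *Nxph4*, *Cbln1*, *Neurod2*, *Neurod6*, *Slc6a7*, *Bzrap1*, *Nova2*, *Lmtk3* and *Btbd17*. They were picked from the 24411 genes of each table because their counts at postnatal day 7 (P7) were higher in homozygous than in heterozygous replicates 5 to 7. That contrast is therefore given below as a description with no test, and the tests rest on the libraries that the choice did not use, which are replicates 1 to 4 at P7 and all libraries at P22. The question was whether the 10 genes follow genotype or the tissue that each pool contained.

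All mice carried the tm2b allele of *Adgrb1*, the gene for the adhesion receptor BAI1, on a C57BL/6N background. The allele lacks exons 3 and 4 in every cell and keeps a lacZ cassette with a splice acceptor. Heterozygous littermates, Bai1tm2b/+, served as controls for homozygous Bai1tm2b/tm2b mice, so that the controls carry a copy of the same allele. The study used animals of either sex, and no wild-type library was analysed here. Each library was a pool of sensory epithelium and spiral ganglion from the apical coil of 4 mice, with 14 libraries at P7 and 6 at P22.

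Neurons of the cerebellum and cortex wire their synapses in part through neurexins, presynaptic adhesion proteins that bind secreted partners such as cerebellins and neurexophilins. The NeuroD family of basic helix-loop-helix transcription factors drives the differentiation of excitatory neurons in the cortex, hippocampus and cerebellum. The afferent neurons of the cochlea are the spiral ganglion neurons, whose central axons run in the auditory nerve towards the brainstem.

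The P22 libraries hold estimated counts that summed to between 35725985 and 40350413 per library, and replicates 5 to 7 at P7 hold estimated counts that summed to between 31108551 and 58807173. The 8 libraries of replicates 1 to 4 at P7 hold integers with totals from 999644 to 999777, as rounded TPM (transcript levels scaled to a common total) would, and the read depth behind them is unknown. The labels give P7 batches of 3 and 4 replicates per genotype without naming them, and the sets of 3 and 4 libraries in the different units were kept apart throughout, so that every P7 value below is a value within 1 set. In CPM (counts scaled to library size), *Adgrb1* had 35.5, 61.5 and 39.4 in Bai1tm2b/+ and 29.6, 23.8 and 34.3 in Bai1tm2b/tm2b replicates 5 to 7. In rounded TPM it had 10, 12, 8 and 7 in Bai1tm2b/+ and 9, 9, 10 and 12 in Bai1tm2b/tm2b replicates 1 to 4, and at P22 it had 139, 137 and 151 CPM against 93.2, 90.8 and 95.8 CPM. These values sum all exons. The paper reports that reads of the long isoform are lost in Bai1tm2b/tm2b, while the short isoform is kept. All Bai1tm2b/tm2b libraries lay below all Bai1tm2b/+ libraries in the P7 counts and at P22. In rounded TPM the genotypes overlapped, so the sum does not check the labels of that set. The tissue label was checked on 17 spiral ganglion neuron markers and 10 hair cell markers. All passed the filter on low counts at P22 and in the P7 libraries in counts. Passing it shows that these genes were detected and cannot show that a pool held no other tissue.

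Of the secreted synaptic ligands, *Cbln1* encodes cerebellin-1, a secreted protein that binds presynaptic neurexin. In the P7 counts it had 7.16, 8.50 and 3.81 CPM in Bai1tm2b/+ replicates 5, 6 and 7, and 14.5, 29.4 and 32.2 CPM in the Bai1tm2b/tm2b replicates of the same numbers. *Nxph4*, which encodes neurexophilin-4, a secreted glycoprotein of the neurexophilin family, had 2.07, 2.40 and 1.40 CPM in Bai1tm2b/+ and 4.33, 11.1 and 13.0 CPM in Bai1tm2b/tm2b. Replicates 6 and 7 of Bai1tm2b/tm2b stood well above replicate 5 for both ligands, and Bai1tm2b/+ replicate 7 was the lowest library for both. The highest Bai1tm2b/tm2b library was 3.01 times the lowest for *Nxph4* and 2.23 times for *Cbln1*. The log2 fold change, given throughout as Bai1tm2b/tm2b over Bai1tm2b/+, was 1.96 for *Cbln1* and 2.27 for *Nxph4*.

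*Neurod2* and *Neurod6* encode NeuroD transcription factors of excitatory forebrain and cerebellar neurons, and had the largest differences. *Neurod2* had 0.681, 0.817 and 0.309 CPM in Bai1tm2b/+ and 1.65, 6.07 and 6.82 CPM in Bai1tm2b/tm2b replicates 5, 6 and 7 (log2 fold change 2.99). *Neurod6* had 0.299, 0.348 and 0.0714 CPM against 0.677, 1.70 and 2.72 CPM (log2 fold change 2.79). Both repeated the order seen for the ligands, with Bai1tm2b/+ replicate 7 lowest and Bai1tm2b/tm2b replicates 6 and 7 far above replicate 5. Few reads lie behind these values, with 641 counts for *Neurod2* and 234 for *Neurod6* over the 6 libraries, and a single library held as few as 3 counts of *Neurod6*.

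NeuroD factors bind E-box motifs, so the sequence upstream of the members was searched for 2 of their forms. RefSeq promoters of GRCm38.p6 were found for 6 of the 10 genes. The 250 bases before the start site of *Neurod2* (chr11:98329646-98329895, minus strand) and *Neurod6* (chr6:55681264-55681513, minus strand) are shown because these genes had the largest fold changes, and those of *Trank1* (chr9:111311489-111311738, plus strand) because it was the only member called at P22. Capitals mark CAGATG or its reverse complement CATCTG, and CAGCTG, which is its own reverse complement, searched on both strands.
Neurod2: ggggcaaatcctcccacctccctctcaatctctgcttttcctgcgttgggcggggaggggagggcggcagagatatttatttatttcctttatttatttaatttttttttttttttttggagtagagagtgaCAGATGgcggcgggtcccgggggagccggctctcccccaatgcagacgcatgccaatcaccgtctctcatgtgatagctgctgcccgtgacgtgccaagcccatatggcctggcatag
Neurod6: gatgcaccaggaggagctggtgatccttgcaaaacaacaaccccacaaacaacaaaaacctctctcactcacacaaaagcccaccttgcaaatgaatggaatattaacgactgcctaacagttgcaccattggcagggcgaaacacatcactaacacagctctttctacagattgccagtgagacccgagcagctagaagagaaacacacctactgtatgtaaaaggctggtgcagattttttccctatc
Trank1: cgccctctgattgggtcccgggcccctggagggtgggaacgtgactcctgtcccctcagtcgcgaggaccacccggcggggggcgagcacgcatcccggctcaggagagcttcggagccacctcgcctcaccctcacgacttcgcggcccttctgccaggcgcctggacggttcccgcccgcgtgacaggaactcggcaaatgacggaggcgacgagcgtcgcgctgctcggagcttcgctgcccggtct

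Of the 6 members searched, *Neurod2* held 1 match, to CAGATG, and *Trank1*, *Neurod6*, *Nova2*, *Lmtk3* and *Btbd17* held none in these 250 bases. Either motif occurred in 25.5% of 32851 promoters, CAGATG or CATCTG in 14.4% and CAGCTG in 13.0%. The GC content of the windows ran from 46.0% for *Neurod6* to 71.2% for *Nova2*, with 70.8% for *Trank1* and 52.8% for *Neurod2*, against a median of 52.4% over all promoters.

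*Trank1*, which encodes a large protein with tetratricopeptide and ankyrin repeats, is annotated by GENCODE on the plus strand at chr9:111311739-111395775 of GRCm38. It had 4.93, 5.13 and 2.67 CPM in Bai1tm2b/+ and 11.6, 23.1 and 21.98 CPM in Bai1tm2b/tm2b replicates 5 to 7 (log2 fold change 2.15). Its libraries fell in the same order as those of the ligands, apart from replicates 6 and 7 of Bai1tm2b/tm2b, which changed places.

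The other 5 genes differed by less and more evenly. *Slc6a7*, the brain proline transporter of presynaptic terminals, had 0.708, 0.991 and 0.762 CPM in Bai1tm2b/+ and 2.54, 2.15 and 2.61 CPM in Bai1tm2b/tm2b (log2 fold change 1.56). *Bzrap1* encodes RIM-BP1, an active zone protein that links calcium channels to RIM, and had 19.4, 18.3 and 16.97 CPM against 29.6, 29.5 and 30.2 CPM (log2 fold change 0.71). The 3 Bai1tm2b/tm2b libraries lay within 1.02 times of each other for *Bzrap1* and within 1.21 times for *Slc6a7*. *Nova2*, a neuronal RNA-binding regulator of alternative splicing, had 7.40, 8.03 and 6.31 CPM against 12.2, 15.1 and 15.02 CPM (log2 fold change 0.96). The gene lies on the plus strand at chr7:18925888-18965319, and 31.68% of its exon bases overlap the gene *Gm26821* on the opposite strand, so that without stated strand use its counts could include reads of that gene.

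*Lmtk3*, a lemur tail kinase of neurons, had 36.7, 32.4 and 35.4 CPM in Bai1tm2b/+ and 63.2, 53.7 and 50.1 CPM in Bai1tm2b/tm2b (log2 fold change 0.68). It was the only member with Bai1tm2b/tm2b replicate 5 as its highest library. *Btbd17*, which encodes a protein with a BTB domain, had 6.45, 6.05 and 5.45 CPM against 9.37, 11.1 and 11.9 CPM (log2 fold change 0.85).

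**Figure D1:**
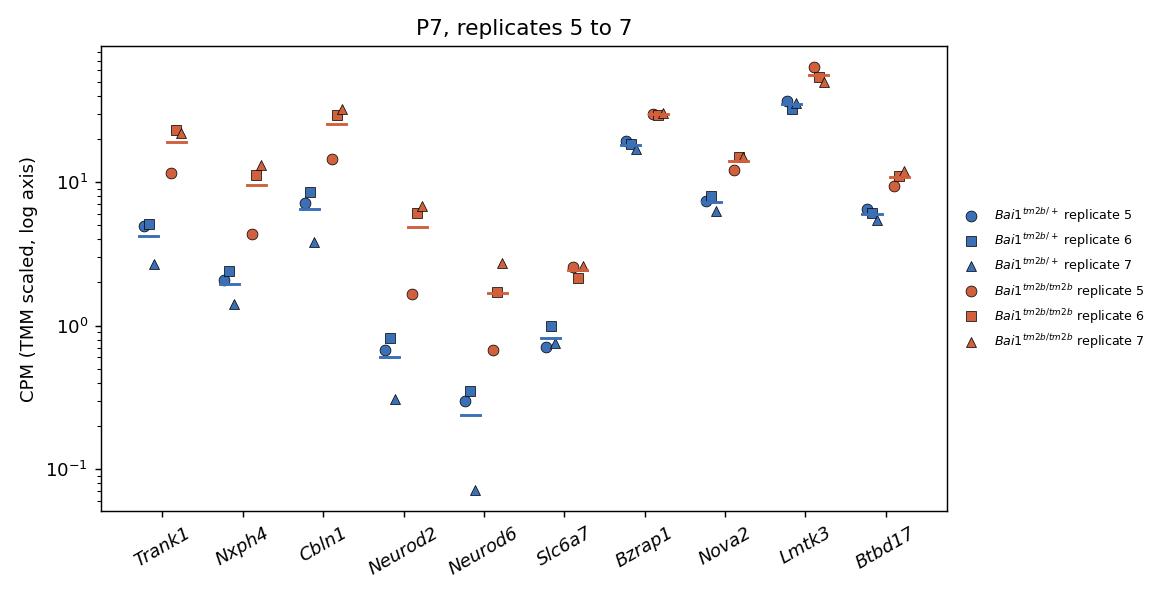
CPM of the 10 genes in each P7 library deposited as counts, on a log axis, with a symbol for each replicate and a line at the mean of 3 libraries (blue, Bai1tm2b/+; orange, Bai1tm2b/tm2b). Every Bai1tm2b/tm2b library lies above every Bai1tm2b/+ library, with a wide spread among Bai1tm2b/tm2b libraries for *Trank1*, *Nxph4*, *Cbln1*, *Neurod2* and *Neurod6* and a narrow one for *Bzrap1*.

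All 10 genes had every Bai1tm2b/tm2b library above every Bai1tm2b/+ library, which the choice of genes fixed, where 5.76% of the 16026 genes tested did. Their median log2 fold change was 1.76, against 0.00 for all genes. The edgeR quasi-likelihood test called 0 of the 16026 genes (0.0%) in this contrast, with 763 at an unadjusted p under 0.05, and DESeq2 called 48 of 19380 (0.248%), 8 of the 10 among them. Nothing is read from these counts. No numerical threshold was part of the choice, and the member with the smallest change was *Lmtk3*. Across members, Bai1tm2b/tm2b replicate 7 was the highest library for 7 genes and Bai1tm2b/+ replicate 7 the lowest for 8.

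Replicates 1 to 4 give the same comparison at P7 in libraries that the choice did not use. *Cbln1* had 7, 14, 11 and 3 TPM in Bai1tm2b/+ replicates 1, 2, 3 and 4 and 7, 6, 2 and 24 TPM in the Bai1tm2b/tm2b replicates. *Nxph4* had 5, 7, 6 and 1 TPM against 5, 3, 1 and 12 TPM. For both ligands, Bai1tm2b/tm2b held the highest library, replicate 4, and a library as low as any of Bai1tm2b/+, replicate 3, which differed from each other 12-fold. The mean of *Cbln1* was 8.75 ± 4.79 TPM (SD, n = 4) in Bai1tm2b/+ and 9.75 ± 9.74 TPM (SD, n = 4) in Bai1tm2b/tm2b (exact permutation test, 2-sided, p = 0.943). For *Nxph4* the means were 4.75 ± 2.63 and 5.25 ± 4.79 TPM (SD, n = 4 each, exact permutation test, 2-sided, p = 0.971). The difference between genotypes was thus smaller than the spread within either genotype for both.

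*Cbln1* and *Nxph4* were the only members with a mean of at least 5 TPM, the limit for the test across genes. The log2 fold change on the log2(TPM + 1) scale was -0.21 for *Cbln1* (standard error 0.565, adjusted p = 0.819, limma) and -0.11 for *Nxph4* (standard error 0.549, adjusted p = 0.907, limma). Neither was called, where 95 of 11740 genes (0.809%) were. The sign of both turned without Bai1tm2b/tm2b replicate 3, to 0.26 for *Cbln1* and 0.32 for *Nxph4*, and that of *Cbln1* also without Bai1tm2b/+ replicate 2, to 0.03.

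The other 8 genes were low in these libraries. *Lmtk3* had 5, 5, 4 and 3 TPM in Bai1tm2b/+ and 5, 3, 3 and 8 TPM in Bai1tm2b/tm2b (exact permutation test, 2-sided, p = 0.914). *Btbd17* had 5, 6, 6 and 3 TPM against 4, 3, 3 and 7 TPM (exact permutation test, p = 0.657). *Nova2* had 2, 3, 2 and 1 TPM against 2, 3, 2 and 4 TPM (exact permutation test, p = 0.486). Genotypes overlapped for all 3 genes, and Bai1tm2b/tm2b replicate 4 was again the highest library. *Neurod2* had 1, 1, 2 and 0 TPM in Bai1tm2b/+ and was listed at 0 in Bai1tm2b/tm2b except for 3 TPM in replicate 4. *Neurod6* had 0, 1, 1 and 0 TPM against 1, 0, 0 and 2 TPM. *Bzrap1* was at 1 TPM in 7 of the 8 libraries and at 2 TPM in Bai1tm2b/tm2b replicate 4. *Trank1* and *Slc6a7* were listed at 1 TPM in the same pair of libraries, Bai1tm2b/+ replicate 3 and Bai1tm2b/tm2b replicate 4, and at 0 in the other 6. For these 5 genes the exact permutation test gave p = 1 each, where 4 pools against 4 cannot give less than 0.0286, and values of 0 to 3 rounded units limit what differences can be seen.

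**Figure D2:**
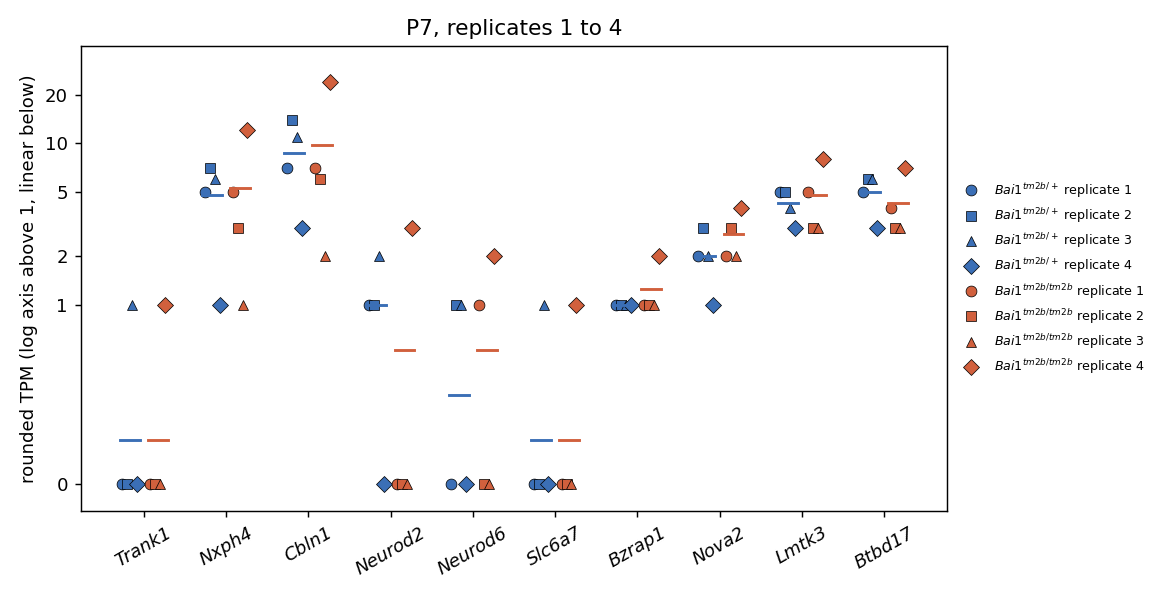
Rounded TPM of the 10 genes in the P7 libraries deposited in that unit, with a symbol for each replicate and a line at the mean of 4 libraries (axis logarithmic above 1 and linear below). Genotypes overlap for every gene, and the Bai1tm2b/tm2b replicate 4 diamond is the highest or equal highest throughout.

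Counting ties, Bai1tm2b/tm2b replicate 4 was the highest library for all 10 genes, while Bai1tm2b/tm2b replicate 3 and Bai1tm2b/+ replicate 4 were each the lowest for 9. Ties at 0 and 1 TPM enter these counts: *Bzrap1* was at 1 TPM in every Bai1tm2b/+ library, and *Trank1*, *Neurod2* and *Slc6a7* were at 0 in 3 of the 4 Bai1tm2b/tm2b libraries. Tested with no limit on low values, all 10 had an adjusted p of at least 0.438 (limma), with 0 of 15922 genes (0.0%) called and 4389 at an unadjusted p under 0.05. In that fit the log2 fold changes ran from -0.43 for *Neurod2* (95% interval -1.39 to 0.53) to 0.26 for *Nova2* (95% interval -0.18 to 0.69). The intervals of *Trank1* (-0.65 to 0.60), *Slc6a7* (-0.65 to 0.60) and *Bzrap1* (-0.21 to 0.38) rest on values of 0, 1 and 2, so that adding 1 before the logarithm narrows them. The interval of *Lmtk3* was -0.51 to 0.46 and that of *Btbd17* -0.78 to 0.16.

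In the P22 libraries *Neurod6* was too low for the test across genes and the other 9 members were tested. *Trank1* was called higher in Bai1tm2b/tm2b. It had 3.11, 2.60 and 2.17 CPM in Bai1tm2b/+ replicates 1, 2 and 3 and 4.86, 5.12 and 3.51 CPM in Bai1tm2b/tm2b, so that the genotypes did not overlap (log2 fold change 0.78, standard error 0.206, adjusted p = 0.0353, edgeR). Refitting without each library in turn, *Trank1* kept a log2 fold change of at least 0.65, but its adjusted p stayed under 0.05 only when Bai1tm2b/tm2b replicate 3 was the library removed and was between 0.0571 and 0.124 in the other 5 refits (edgeR). A call needed an adjusted p under 0.05, a log2 fold change beyond 0.5 up or down and its standard error below 0.5, and 487 of 15443 genes (3.15%) met these limits.

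The ligands did not pass the test at P22. *Nxph4* had 0.472, 0.255 and 0.186 CPM in Bai1tm2b/+ and 0.908, 0.481 and 0.432 CPM in Bai1tm2b/tm2b, from between 7 and 37 counts per library (log2 fold change 1.00, standard error 0.478, adjusted p = 0.200, edgeR). *Cbln1* had 9.38, 9.51 and 7.02 CPM against 11.4, 7.02 and 5.26 CPM (log2 fold change -0.13, standard error 0.241, adjusted p = 0.766, edgeR). Genotypes overlapped for both ligands, and the 95% interval of *Cbln1* was -0.60 to 0.34. Bai1tm2b/tm2b replicate 1 was the highest library for both.

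The NeuroD factors were near the limit of detection. *Neurod2* had 0.555, 0.594 and 0.397 CPM in Bai1tm2b/+ and 0.368, 0.240 and 0.330 CPM in Bai1tm2b/tm2b, with all Bai1tm2b/tm2b libraries below (log2 fold change -0.71, standard error 0.394, adjusted p = 0.265, edgeR). *Neurod6* was seen in Bai1tm2b/+ replicate 2, with 3 counts, and in Bai1tm2b/tm2b replicate 1, with 4 counts. The other 4 libraries held 0 counts of *Neurod6*, which allows up to 0.0840 CPM in the shallowest library, with counting error alone considered.

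*Bzrap1* and *Nova2*, which had been higher in the P7 counts, were lower in Bai1tm2b/tm2b at P22 by less than the limit of 0.5. *Bzrap1* had 69.4, 63.3 and 69.4 CPM in Bai1tm2b/+ and 58.8, 49.2 and 56.5 CPM in Bai1tm2b/tm2b (log2 fold change -0.30, standard error 0.0770, adjusted p = 0.0323, edgeR). *Nova2* had 46.8, 41.3 and 51.7 CPM against 38.1, 35.2 and 34.8 CPM (log2 fold change -0.37, standard error 0.0861, adjusted p = 0.0213, edgeR). All Bai1tm2b/tm2b libraries lay below all Bai1tm2b/+ libraries for these 2 genes. An adjusted p under 0.05 at any size was reached by 12.3% of the genes tested. For each of the 2 genes the adjusted p passed 0.05 in 4 of the 6 refits without 1 library, with values of up to 0.123 for *Bzrap1* and 0.0750 for *Nova2* (edgeR). With the libraries scaled to spiral ganglion neuron markers, the log2 fold changes were -0.02 for *Bzrap1* and -0.09 for *Nova2*. That scaling raised genes in general, with the median of all genes moving from 0.01 to 0.29.

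*Slc6a7* had 3.91, 2.72 and 1.94 CPM in Bai1tm2b/+ and 3.04, 4.69 and 5.31 CPM in Bai1tm2b/tm2b (log2 fold change 0.61, standard error 0.275, adjusted p = 0.174, edgeR). *Lmtk3* had 24.4, 19.4 and 20.2 CPM against 28.6, 25.2 and 24.9 CPM (log2 fold change 0.30, standard error 0.1002, adjusted p = 0.0763, edgeR). The genotypes overlapped for *Slc6a7* but not for *Lmtk3*. *Btbd17* had 2.14, 1.92 and 2.01 CPM against 1.77, 2.16 and 1.68 CPM (log2 fold change -0.11, standard error 0.214, adjusted p = 0.768, edgeR).

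**Figure D3:**
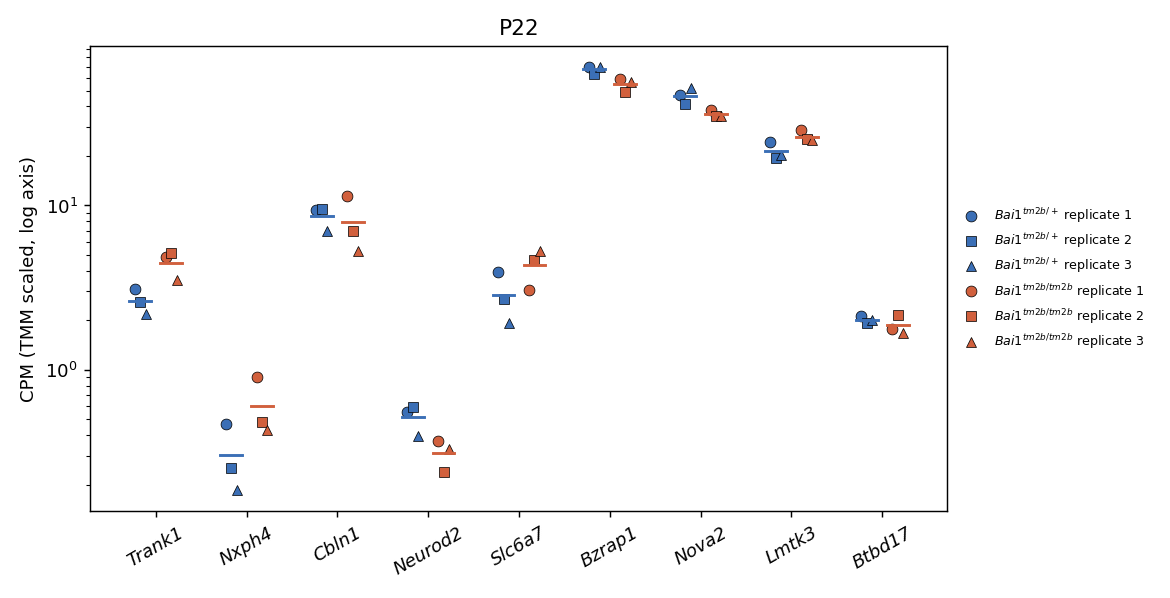
CPM of 9 of the 10 genes in each P22 library, on a log axis, with a line at the mean of 3 libraries. *Neurod6*, with 0 counts in 4 of 6 libraries, is not drawn. *Trank1* and *Lmtk3* have all Bai1tm2b/tm2b libraries above the Bai1tm2b/+ libraries, and *Neurod2*, *Bzrap1* and *Nova2* have them all below.

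Across the 9 genes, 4 log2 fold changes were positive and 5 negative, with a median of -0.11 against 0.01 for all genes. Genotypes did not overlap for 5 of the 9, against 33.7% of the 15443 genes, and exact permutation tests of 3 pools against 3 cannot give less than p = 0.1, the value for each of these 5. With the libraries scaled to the spiral ganglion neuron markers, which shifted the median of all genes to 0.29, the members called were *Trank1*, *Slc6a7* (0.88) and *Lmtk3* (0.57), and *Cbln1* (0.13) and *Btbd17* (0.17) became positive. Levels at P22 and P7 are given side by side without a test, since the tables were made separately. *Nova2* had between 34.8 and 51.7 CPM at P22 and between 6.31 and 15.1 CPM at P7, and *Bzrap1* between 49.2 and 69.4 CPM and between 16.97 and 30.2 CPM. *Neurod6* and *Nxph4* had their highest values in P7 libraries, 2.72 and 13.0 CPM, against 0.0982 and 0.908 CPM at P22.

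The difference between genotypes was also compared between ages without the libraries used for the choice, as the P22 log2 fold change minus that of replicates 1 to 4 at P7. It was 1.10 for *Nxph4* (standard error 0.728, adjusted p = 0.234 from edgeR and limma fits) and 0.08 for *Cbln1* (standard error 0.615, adjusted p = 0.931). Neither passed, where 34.8% of 11707 genes did. With no limit on low TPM values, *Nova2* passed at -0.63 (standard error 0.238, adjusted p = 0.0320 from edgeR and limma fits), and the other 8 genes did not, where 29.9% of 15022 genes passed. The ages were measured on unlike scales here, counts at P22 and log2(TPM + 1) at P7, so a difference between them need not be one of age.

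**Figure D4:**
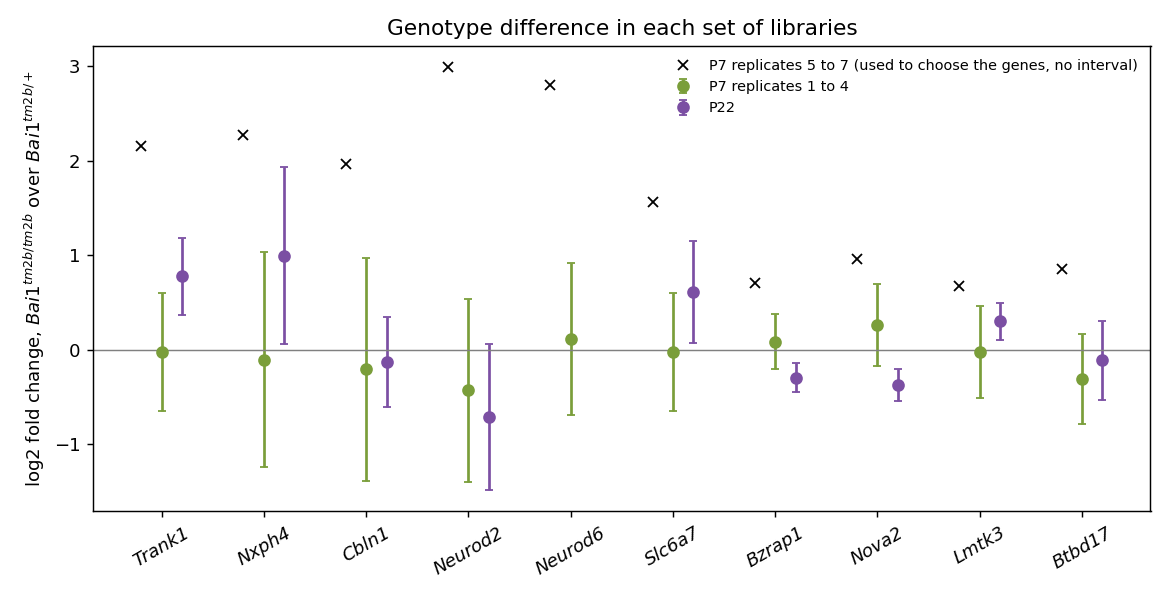
Log2 fold change of each gene in the P7 counts (crosses, the contrast used for the choice, without interval), in the P7 libraries in rounded TPM with no limit on low values (green) and at P22 (purple), with 95% intervals. The crosses lie between 0.68 and 2.99, while the intervals in rounded TPM all include 0 and the P22 values fall on both sides of 0. *Neurod6* has no P22 value.

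The genes whose pattern across the 6 P7 libraries in counts was most like the mean of the members (log2 CPM, z scores) were named as a description. Of 16016 genes ranked, the 10 most alike had a Pearson's r between 0.976 and 0.995: *Slc12a5*, *Cbs*, *2010001A14Rik*, *Ltn1*, *Gm10636*, *Gsx1*, *Uxt*, *Taf1b*, *Pcid2* and *Kcnh3*. With 6 points, an r over 0.95 was reached by 60 genes, and some of the 10 differed little between genotypes, such as *Ltn1* with a log2 fold change of 0.06. *Slc12a5*, which encodes KCC2, the chloride extruder of central neurons, had 6.75, 7.88 and 5.36 CPM in Bai1tm2b/+ and 17.2, 31.3 and 31.3 CPM in Bai1tm2b/tm2b. In rounded TPM it had 2, 4, 3 and 1 against 2, 1, 1 and 5, with Bai1tm2b/tm2b replicate 4 highest as for the members. At P22 it had 5.19, 3.65 and 2.62 CPM against 4.59, 4.66 and 2.03 CPM (log2 fold change -0.02, standard error 0.320, adjusted p = 0.976, edgeR). *Kcnh3*, a potassium channel gene of forebrain neurons, had 0.626, 0.487 and 0.405 CPM against 1.30, 2.82 and 3.32 CPM in the P7 counts and at most 0.0721 CPM at P22.

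Partners of the members were taken from lists chosen with earlier results of these data known. For the counts in the lists below, the shares over all genes tested were as follows. All Bai1tm2b/tm2b libraries lay above all Bai1tm2b/+ libraries for 5.76% in the P7 counts. Calls reached 3.15% at P22 and 0.809% in rounded TPM. Of the other neurexin ligands, neurexins and their synaptic partners, 10 of 11 passed the filter in the P7 counts at a median of 0.33 on the log2 scale, and 2 had all Bai1tm2b/tm2b libraries above Bai1tm2b/+. The neurexin gene *Nrxn3* fell at P22, from 4.91, 3.59 and 4.37 to 2.55, 2.02 and 2.46 CPM (log2 fold change -0.87, standard error 0.190, adjusted p = 0.0162, edgeR), the only call among the 8 tested there, and one that was lost in 3 of the 6 refits without 1 library. *Nrxn2* was called higher in the P7 libraries in rounded TPM, at 24, 26, 18 and 18 TPM in Bai1tm2b/+ and 27, 36, 33 and 38 TPM in Bai1tm2b/tm2b (log2 fold change 0.52, adjusted p = 0.0439, limma). In the P7 counts *Nrxn2* had 94.1 ± 21.5 CPM against 94.1 ± 11.7 CPM (SD, n = 3 each), and its call in rounded TPM was lost in 6 of the 8 refits without 1 library and with length and GC trends removed.

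A list of 7 related proneural genes held *Neurod1*, *Neurod4*, the neurogenins, *Atoh1* and *Atoh7*. Of these, *Neurod1* (log2 fold change 2.61), *Atoh1* (0.16) and *Atoh7* (3.68) passed the filter in the P7 counts, and none was called at P22 or in rounded TPM. *Neurod1*, which also acts in spiral ganglion development, had 0.272, 0.522 and 0.4998 CPM in Bai1tm2b/+ and 1.11, 4.53 and 2.45 CPM in Bai1tm2b/tm2b. In rounded TPM it had 1, 1, 2 and 0 against 1, 1, 1 and 2. The other neuronal splicing regulators, the list beside *Nova2*, had a median log2 fold change of 0.10 over 13 genes in the P7 counts, and 12 of 13 were negative at P22 with no call and a median of -0.16. *Nova1*, the paralog of *Nova2*, had 12.1, 18.6 and 14.0 CPM against 17.7, 18.5 and 21.7 CPM in the P7 counts, and -0.30 at P22 (standard error 0.0946, adjusted p = 0.0618, edgeR).

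The active zone partners of RIM-BP1 summed to between 368 and 397 CPM in Bai1tm2b/+ and between 405 and 407 CPM in Bai1tm2b/tm2b in the P7 counts, with 2 of 13 above in all Bai1tm2b/tm2b libraries. In rounded TPM they summed to more in every Bai1tm2b/tm2b library (90 to 116) than in any Bai1tm2b/+ library (65 to 84), with no gene called, and at P22 to less (512 to 540 CPM against 565 to 672 CPM). Their median log2 fold change was 0.06 in the P7 counts, 0.35 in rounded TPM and -0.25 at P22. Over all genes tested, log2 fold change correlated with transcript length at a Spearman coefficient of 0.60 in rounded TPM. The coefficient was 0.06 in the P7 counts and -0.22 at P22. The part of transcript length in the values of these partners was not tested. Only *Rims1*, which encodes the vesicle-priming scaffold RIM1, was called at P22, at 16.0, 14.0 and 18.3 CPM against 9.30, 10.9 and 10.1 CPM (log2 fold change -0.67, standard error 0.118, adjusted p = 0.00684, edgeR). Of the SLC6 amino acid and GABA transporters beside *Slc6a7*, 3 of 8 had all Bai1tm2b/tm2b libraries above in the P7 counts, and at P22 *Slc6a17* was called lower (654, 601 and 702 against 420, 419 and 426 CPM) and *Slc6a20a* higher (17.1, 16.5 and 16.2 against 22.3, 30.9 and 19.8 CPM), the latter in 2 of 6 refits without 1 library. For the 5 genes of the LMTK kinase and CDK5 list the median was -0.01 in the P7 counts and -0.15 at P22, with no call.

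Markers of cell types that a pool could hold were summed per library. In these bulk pools, fewer cells of a type and less RNA per cell cannot be told apart. The 14 cerebellar neuron markers summed to between 363 and 464 CPM in Bai1tm2b/+ and between 425 and 511 CPM in Bai1tm2b/tm2b in the P7 counts, and the 13 forebrain excitatory neuron markers to between 160 and 186 CPM and between 158 and 202 CPM. All Bai1tm2b/tm2b libraries lay above all Bai1tm2b/+ libraries for 5 of the 14 cerebellar markers (*Gabra6*, *Zic1*, *Zic4*, *Pax6* and *En2*) and for 3 of the 13 forebrain markers (*Camk2a*, *Lamp5* and *Neurod1*). The share over all genes tested was 5.76%, and *Gabra6* did not pass the filter on low counts. *Lamp5* had 1.69, 1.27 and 0.762 CPM in Bai1tm2b/+ and 2.87, 6.97 and 9.38 CPM in Bai1tm2b/tm2b, and in rounded TPM 3, 5, 3 and 1 against 2, 2, 0 and 9, in the order of libraries seen for *Cbln1* and *Nxph4* at the highest and lowest Bai1tm2b/tm2b libraries. *Pax6* had 1.58, 2.59 and 1.45 CPM against 4.06, 5.49 and 5.93 CPM, and in rounded TPM 1, 2, 2 and 1 against 1, 1, 1 and 3. Some markers of these lists were very low. *Gabra6* of cerebellar granule cells, counted among the 5 cerebellar markers above, had 0 counts in all 3 Bai1tm2b/+ and between 0.161 and 0.217 CPM in Bai1tm2b/tm2b libraries. *Fezf2* was at 0 in all 6, and *Emx1* and *Tbr1* of the cortex stayed under 0.70 CPM in each. *Gabra6*, *Fezf2*, *Emx1* and *Tbr1* were listed at 0 in all 8 libraries in rounded TPM. The description of the members as brain neuron genes is a name for the group and not a result for each gene. The source of their reads in these pools was not measured.

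Central glia markers were in part ordered otherwise than the members. The 12 central glia markers summed to between 956 and 1179 CPM in Bai1tm2b/+ and between 1127 and 1411 CPM in Bai1tm2b/tm2b in the P7 counts, with 5 of 12 above in all Bai1tm2b/tm2b libraries, where 5.76% of all genes tested were. Among them was *Slc1a2*, the astrocyte glutamate transporter, at 90.5, 93.0 and 74.8 CPM against 117, 125 and 156 CPM. In rounded TPM their sum was lowest in Bai1tm2b/+ replicate 4, at 416, and ran from 455 in Bai1tm2b/tm2b replicate 3 to 598 in replicate 4, with 3 of the Bai1tm2b/+ libraries between 597 and 626, and 8 of the 10 log2 fold changes tested were negative. In the P7 counts Bai1tm2b/tm2b replicate 6 had the lowest sum of its genotype and lay below Bai1tm2b/+ replicate 6. Single genes differed from these sums. *Slc1a2*, *Olig1* and *Aldh1l1* had the library order of *Cbln1* in the P7 counts, while genotypes overlapped for *Gfap* and *Mog*. In rounded TPM the same genes were highest in Bai1tm2b/tm2b replicate 4, where *Gfap* and *Mog* were not. Within genotypes, *Slc1a2*, *Olig1* and *Aldh1l1* were lowest in Bai1tm2b/tm2b replicate 3 and Bai1tm2b/+ replicate 4. At P22, 4 central glia markers were called higher in Bai1tm2b/tm2b (*Olig1*, *Olig2*, *Mog* and *Gfap*), where 3.15% of all genes tested were called in either direction. The whole list summed to between 739 and 874 CPM in Bai1tm2b/+ and between 951 and 1346 CPM in Bai1tm2b/tm2b, while the members split between both directions. The 10 inhibitory neuron markers summed to between 70.7 and 85.1 CPM in Bai1tm2b/+ and to 81.3, 130 and 129 CPM in Bai1tm2b/tm2b replicates 5, 6 and 7 at P7. *Sst* alone made up most of this difference: the other 9 markers summed to 67.2, 83.3 and 82.1 CPM against 75.4, 77.9 and 88.5 CPM, and the genotypes overlapped. Of these 9 markers, *Dlx5* and *Npy* had the highest levels. In the P7 counts all Bai1tm2b/tm2b libraries lay above for 3 of the 10 (*Sst*, *Gad2* and *Slc32a1*), against 5.76% of all genes tested. The log2 fold changes of 4 of the 10 were negative, and in rounded TPM 0 of the 10 lay above throughout.

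Within that list, and chosen after its values were seen, *Sst* encodes the neuropeptide somatostatin and had 3.51, 1.83 and 0.714 CPM in Bai1tm2b/+ and 5.85, 51.7 and 40.6 CPM in Bai1tm2b/tm2b. In rounded TPM it had 79, 96, 57 and 4 in Bai1tm2b/+ and 42, 29, 1 and 188 in Bai1tm2b/tm2b. Its order of libraries was that of *Cbln1* and *Nxph4* at both ends, with Bai1tm2b/tm2b replicate 4 highest and Bai1tm2b/tm2b replicate 3 and Bai1tm2b/+ replicate 4 lowest. *Atoh7*, a proneural factor best known from the retina and also chosen after its values were seen, had 3, 12, 5 and 1 against 3, 2, 0 and 18 TPM, and 0.381, 0.348 and 0.119 against 0.487, 5.87 and 4.70 CPM. At P22, *Sst* had 0 counts in all 6 libraries, which allows up to 0.0840 CPM in the shallowest. *Slc6a11*, the GABA transporter GAT-3, chosen in the same way, had 45.4, 49.6 and 25.6 against 71.8, 108 and 184 CPM, and 33, 51, 34 and 12 against 29, 21, 12 and 68 TPM.

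The markers listed for cells of the cochlea shared the order of the members only in part in the P7 libraries. Whether their reads came only from such cells was not tested. Spiral ganglion neuron markers summed to 2237, 4099 and 2716 CPM in Bai1tm2b/+ replicates 5, 6 and 7 and to 1943, 2400 and 2800 CPM in Bai1tm2b/tm2b. The Bai1tm2b/tm2b sums thus rose from replicate 5 to replicate 7, as *Cbln1* did, while Bai1tm2b/+ replicate 7 was not the lowest. Hair cell markers summed to 1076, 714 and 870 CPM against 839, 1123 and 954 CPM, so that genotypes overlapped for both sums. In rounded TPM the spiral ganglion neuron sum was 3745 in Bai1tm2b/tm2b replicate 3 and 3788 in replicate 4, libraries in which *Cbln1* had 2 and 24 TPM. That sum was highest in Bai1tm2b/tm2b replicate 4, as the members were. It was lowest in Bai1tm2b/+ replicate 4, at 2131, a library that was also the lowest for 9 members, counting ties. Schwann cell markers were lowest in Bai1tm2b/tm2b replicate 6 of the P7 counts, at 5843 CPM against between 10282 and 17146 CPM in the other 5 libraries. At P22 the spiral ganglion neuron sum was between 18305 and 20484 CPM in Bai1tm2b/+ and between 13556 and 15169 CPM in Bai1tm2b/tm2b, with 2 of 17 markers called lower, and the hair cell sum was between 438 and 461 CPM and between 555 and 650 CPM, with 2 of 10 called higher. Of all genes tested, 3.15% were called in either direction. The part of any of these lists in the values of the members was not tested.

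**Figure D5:**
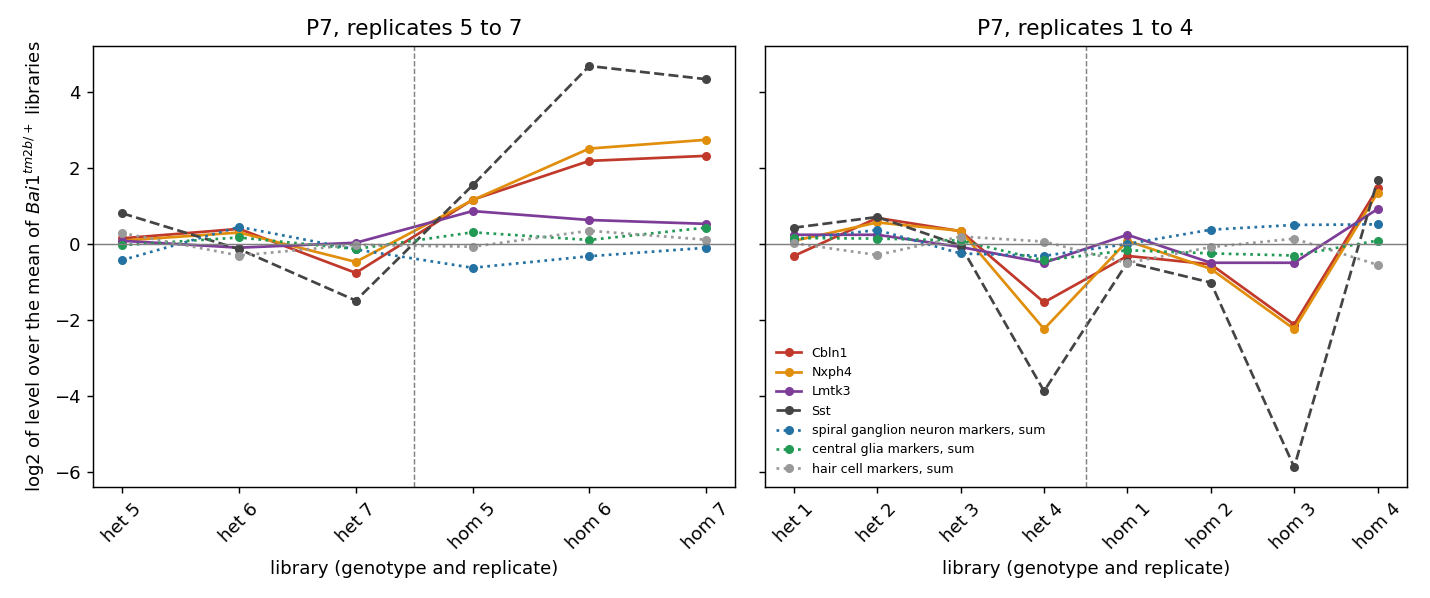
Log2 ratio of each P7 library to the mean of the Bai1tm2b/+ libraries of its own set, for *Cbln1*, *Nxph4*, *Lmtk3* and *Sst* and for summed marker lists, in counts (left) and rounded TPM (right), with Bai1tm2b/+ marked het and Bai1tm2b/tm2b marked hom. *Cbln1*, *Nxph4* and *Sst* dip together in Bai1tm2b/+ replicate 4 and Bai1tm2b/tm2b replicate 3 and peak together in Bai1tm2b/tm2b replicate 4, while the spiral ganglion neuron sum is almost equal in these Bai1tm2b/tm2b libraries.

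The sums of erythroid, neutrophil, bone and supporting cell markers also overlapped between genotypes in the P7 counts. Neutrophil markers reached 60.3 CPM in Bai1tm2b/tm2b replicate 5 and at most 7.26 CPM in the other 5 libraries, and that replicate was the one in which *Cbln1*, *Nxph4*, *Neurod2*, *Neurod6* and *Trank1* were the lowest of their genotype. At P22, 3 of 10 supporting cell markers and 1 of 8 Schwann cell markers were called, where 3.15% of all genes tested were, and none of the erythroid, neutrophil, bone, cerebellar, forebrain or inhibitory neuron markers was called by edgeR.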

How the data were processed

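RNA-seq values of 20 libraries were used as deposited, per gene symbol. The authors prepared poly A libraries, mapped paired-end reads to mm10 and counted them with Salmon in an nf-core pipeline (STAR and Salmon per the labels). Versions, annotation and use of strand are not given in the sources used here. The deposited P22 values and P7 replicates 5 to 7 are estimated counts without normalization. Deposited P7 replicates 1 to 4 are integers with the totals of rounded TPM, treated here as a score, so no count test was run on them. No value column was left unused, and 27 rows carry a date in place of a symbol.

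Estimated counts were rounded, filtered (filterByExpr), scaled by TMM and tested in edgeR 4.0.16 (R 4.3.3) by quasi-likelihood, with DESeq2 1.42.0 as an alternative. CPM values are TMM scaled. Rounded TPM were scaled by TMM and tested on log2(TPM + 1) with limma 3.58.1 (trend), if their mean over the 8 libraries reached 5 TPM. P values were adjusted by the Benjamini-Hochberg method over all genes tested. Calls needed an adjusted p under 0.05, a log2 fold change over 0.5 either way and a standard error under 0.5. Differences between ages were tested from both standard errors with a normal approximation. Single genes were compared by exact 2-sided permutation tests of the deposited TPM and the CPM. The labels do not say that replicates came from separate dissections, and p values measure the spread between these libraries. The edgeR, DESeq2 and limma fits, the replicate block in edgeR and the difference between ages were tried on simulated data, and the other steps were not. Intervals are 95% and use the normal approximation, and floors take 3 counts.

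The members and gene lists were chosen with earlier results of these data known. All members are named, each list's called genes or its most abundant ones, the 10 genes most like the members (log2 CPM with a pseudocount of 0.5) and *Adgrb1*. Picked after their values were seen were *Sst*, *Atoh7*, *Slc6a11*, *Neurod1*, *Nova1*, *Slc1a2*, *Aldh1l1*, *Gad2*, *Slc32a1*, *Lamp5* and *Pax6*. Loci are from GENCODE vM21. Alternatives were another scaling, filter, pseudocount, test, block or library set. The values of 1 listed gene are not reported here.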

Additional observations from a re-analysis of the deposited data

Results flagged for a closer look

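Of 74 groups of 4 libraries in rounded TPM examined for a value far from the rest, 14 held one, where chance gives about 1 in 20 groups, and values of 0 to 3 rounded units make such gaps easy to reach. Bai1tm2b/tm2b replicate 4 stood apart as the highest library for *Trank1* (1 TPM), *Slc6a7* (1 TPM), *Neurod2* (3 TPM), *Bzrap1* (2 TPM), *Gsx1* (2 TPM) and *Kcnh3* (1 TPM). In Bai1tm2b/+, replicate 3 stood apart for *Trank1* (1 TPM) and *Slc6a7* (1 TPM), and replicate 2 for *Gsx1* (2 TPM) and *Kcnh3* (1 TPM). *Pcid2* was lowest in Bai1tm2b/tm2b replicate 1, at 20 TPM. Among summed lists, central glia markers were lowest in Bai1tm2b/+ replicate 4 (416 TPM), erythroid markers highest in Bai1tm2b/+ replicate 2 (5258 TPM) and the LMTK kinase and CDK5 list lowest in Bai1tm2b/tm2b replicate 1 (177 TPM).

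The genotype difference of *Nova2* differed between the P22 counts and the P7 rounded TPM, with a log2 fold change at P22 minus P7 of -0.63 in the fit with no limit on low TPM values (adjusted p = 0.0320 from edgeR and limma fits), where 29.9% of genes passed. It rests on values of 1 to 4 TPM at P7 and on unlike scales, counts at P22 and log2(TPM + 1) at P7. Log2 fold change correlated with transcript length at 0.60 (Spearman) in rounded TPM and -0.22 at P22. The *Nova2* transcript has 8372 nt, against a median of 3105 nt for the genes tested in the P7 counts. The part of scale or length in this difference was not tested.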

How the results depend on the processing

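Of the members, 1 was called at P22, against 3 after scaling to spiral ganglion neuron markers and 0 to 1 with each library left out. None was called in rounded TPM under any alternative run. For the difference between ages, 0 members passed, and 1 (*Nova2*) with no limit on low TPM values, added after the data were seen. At P22, 16 partner and marker genes were called, and 9 to 26 with each library left out (10 without Bai1tm2b/+ replicate 3, 9 without Bai1tm2b/tm2b replicate 2 and 26 without Bai1tm2b/tm2b replicate 3). In rounded TPM, 8 were called, 0 with the replicate block and 0 to 17 with each library left out (5 without Bai1tm2b/+ replicate 1, 17 without Bai1tm2b/tm2b replicate 1 and 0 without any of the others). Over all genes, calls at P22 were 487, and 2187 after scaling to spiral ganglion neuron markers (2133 higher and 54 lower, against 269 and 218), 466 with the replicate block and 270 to 588 with each library left out (270 and 285 without Bai1tm2b/+ replicates 1 and 3, 282 without Bai1tm2b/tm2b replicate 2). In rounded TPM they were 95, and 0 with the replicate block, 0 with length and GC trends removed, 0 without the filter, 49 with a pseudocount of 5, 293 without TMM (284 higher and 9 lower, against 77 and 18), 1006 after marker scaling (13 higher and 993 lower) and 0 to 332 with each library left out (332 without Bai1tm2b/tm2b replicate 1, 137 without Bai1tm2b/+ replicate 1, otherwise 0). In the P7 counts edgeR called 0, also with the replicate block, and 20 after marker scaling. Marker scaling shifted the median of all genes to 0.25 in the P7 counts and -0.25 in rounded TPM. The causes were not tested. Replicate numbers do not pair the libraries, since deviations of same-numbered libraries correlated between -0.347 and 0.082, and the block left the calls of the members at 1 (P22) and 0 (rounded TPM).

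At P22, marker scaling turned *Cbln1* to 0.13 and *Btbd17* to 0.17. Leaving out each library gave *Cbln1* -0.49 to 0.0899 at P22. In rounded TPM the log2 fold changes then ran from -0.74 to 0.26 for *Cbln1* and from -0.55 to 0.32 for *Nxph4*, whose mean was under 5 TPM without Bai1tm2b/+ replicate 2 or 3 or Bai1tm2b/tm2b replicate 4. The mean difference in TPM, Bai1tm2b/tm2b minus Bai1tm2b/+, ran from -3.75 to 3.58 for *Cbln1*, -1.75 to 1.92 for *Nxph4*, -1 to 0.0833 for *Neurod2*, -0.17 to 0.50 for *Neurod6* and -0.58 to 1.08 for *Lmtk3*. The whole-number TPM limit what can be said of the 5 members at 0 to 3 TPM.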
